A study of Mus musculus with 10 samples.

Results

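The cardiac T-box factors were taken as 7 genes, Tbx1, Tbx2, Tbx3, Tbx4, Tbx5, Tbx18 and Tbx20, which are 7 of the 17 T-box family genes among the 38924 gene identifiers of the count data. Each row was found by its stable Ensembl identifier, which carries 1 of these symbols in GENCODE M21, an annotation of the same mouse genome build (GRCm38, mm10) as the deposited alignments. RNAseq was done on 10 samples of cells sorted at day 5 from a single mouse embryonic stem cell (mESC) line, Foxa2-hCD4, in which a truncated human CD4 made from the Foxa2 locus marks Foxa2-expressing cells at the surface. Foxa2+ cardiac mesoderm (CM, n = 3) was Pdgfra+Kdr+hCD4+, and Foxa2- CM (n = 3) was Pdgfra+Kdr+hCD4-. Both came from embryoid bodies given VEGF, Activin A at 8 ng per ml and BMP4 at 1 ng per ml, and haematopoietic mesoderm (labelled Flk1+ high, n = 2), sorted as Kdr-high cells without Pdgfra, came from the same kind of culture. Endoderm (n = 2) was hCD4+ and without Pdgfra and Kdr, from cells given Activin A at 75 ng per ml, so tissue and culture cannot be told apart where endoderm is compared. All 4 groups carry the reporter, and all come from that 1 line. The labels do not say whether samples of a group came from separate cultures, so the p-values measure only the spread between these samples.

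T-box proteins are transcription factors that share a DNA-binding domain, the T-box, and act in a dose-sensitive way as activators or repressors when mesoderm is patterned. In the heart, Tbx5 and Tbx20 work with Nkx2-5 and Gata4 to switch on myocardial genes, while the closely related repressors Tbx2 and Tbx3 keep chamber genes off in the atrioventricular canal and the conduction system. Tbx1 acts in the pharyngeal mesoderm that feeds the outflow tract, Tbx18 in the sinus horns and epicardium, and Tbx4 in the hindlimb, the lung mesenchyme and the allantois. Tbx2 and Tbx4 on one hand, and Tbx3 and Tbx5 on the other, are tandem neighbours that descend from 1 ancestral pair.

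This arrangement is seen in the annotation. Tbx2 (chr11:85832551-85841948) and Tbx4 (chr11:85886422-85916097) lie on the forward strand with 44473 bases between them, and Tbx3 (chr5:119670669-119684724) and Tbx5 (chr5:119832668-119885219) lie on the forward strand with 147943 bases and no protein-coding gene between them. Tbx1 (chr16:18580979-18590671), Tbx18 (chr9:87702800-87731260) and Tbx20 (chr9:24718138-24774303) are on the reverse strand. The most similar pairs by sequence are Tbx2 with Tbx3 and Tbx4 with Tbx5, so it was examined whether reads of 50 bases could be assigned to the wrong gene of a pair. The coding window of 60 bases in which Tbx2 and Tbx3, the abundant pair, are most alike is shown here 5′ to 3′ from GENCODE M21 transcripts, with the bases that differ within the pair in capitals. It is in exon 1 of each gene (chr11:85833430-85833489 and chr5:119672333-119672392), on the forward strand.
Tbx2: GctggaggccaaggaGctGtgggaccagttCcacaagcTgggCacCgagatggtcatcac
Tbx3: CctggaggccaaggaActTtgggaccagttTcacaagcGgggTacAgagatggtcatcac

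Even in this window 7 of 60 bases differed. The longest identical run anywhere in the longest coding transcripts was 14 bases for Tbx2 and Tbx3 and 23 bases for Tbx4 and Tbx5. Of 38462 stretches of 50 bases in the transcripts of the 7 genes, 0 occurred in a transcript of another of them. Sharing with other genes was limited to 67 of 6660 stretches of Tbx3, all with the overlapping antisense RNA Tbx3os1, to 17 of 4620 of Tbx5, to 10 of 11989 of Tbx20 and to 852 of 4668 of Tbx18, of which 836 lay in the antisense gene D030062O11Rik. The library kit does not mark strand, so Tbx18 reads cannot be told apart from those of its antisense partner there.

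Between 10926284 and 17470126 reads were counted on genes per sample, so that 3 counts, the smallest signal taken as detectable, corresponded to 0.169 to 0.280 CPM (counts scaled to the library size, with TMM factors). The labels were checked against markers. Foxa2 itself averaged 13.2 ± 8.63 CPM in Foxa2+ CM, 1.44 ± 0.95 in Foxa2- CM (SD, n = 3 each), 184 ± 2.05 in endoderm and 0.739 ± 0.069 in haematopoietic mesoderm (SD, n = 2 each). The summed level of 10 CM markers was 1013 to 1312 CPM in CM, 133 to 214 in endoderm (9 of 10 detected) and 745 to 914 in haematopoietic mesoderm. Of the last sum, Kdr, on which those cells were sorted, made up 554 to 593 CPM and Pdgfra 23.8 to 34.3 CPM. Kdr and Pdgfra, on which the CM cells were sorted, averaged 381 and 221 CPM in Foxa2+ CM and 421 and 286 in Foxa2- CM. In endoderm, sorted without them, they averaged 8.10 and 60.8 CPM. This part of the sums is tied to the sort and is no separate check of the labels. A further 10 haematopoietic and endothelial markers summed to 1636 to 1958 CPM in haematopoietic mesoderm but also to 385 to 660 in CM. Sorted populations are mixtures, so fewer cells of a type and less RNA per cell cannot be told apart.

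The 7 genes covered a wide range of levels within CM. Per exonic length (RPKM, here CPM per kilobase of exon), Tbx3 was the highest in all 10 samples and averaged 60.5 ± 4.62 RPKM in Foxa2+ CM, 58.4 ± 5.17 in Foxa2- CM, 3.25 ± 2.43 in endoderm and 33.5 ± 8.43 in haematopoietic mesoderm. In both kinds of CM it was followed by Tbx2 (19.4 ± 3.06 and 24.6 ± 4.30 RPKM in Foxa2+ and Foxa2- CM) and Tbx20 (12.5 ± 2.54 and 14.3 ± 4.35 RPKM). The 4 remaining genes were far lower. In Foxa2+ CM the next in order was Tbx5 at 0.809 ± 0.093 RPKM, above Tbx4 at 0.092 ± 0.014, while in Foxa2- CM the next was Tbx4 at 1.05 ± 0.67 RPKM, above Tbx5 at 0.230 ± 0.139. Tbx18 and Tbx1 came last in CM, and their samples overlapped in RPKM in both CM groups.

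**Figure D1:**
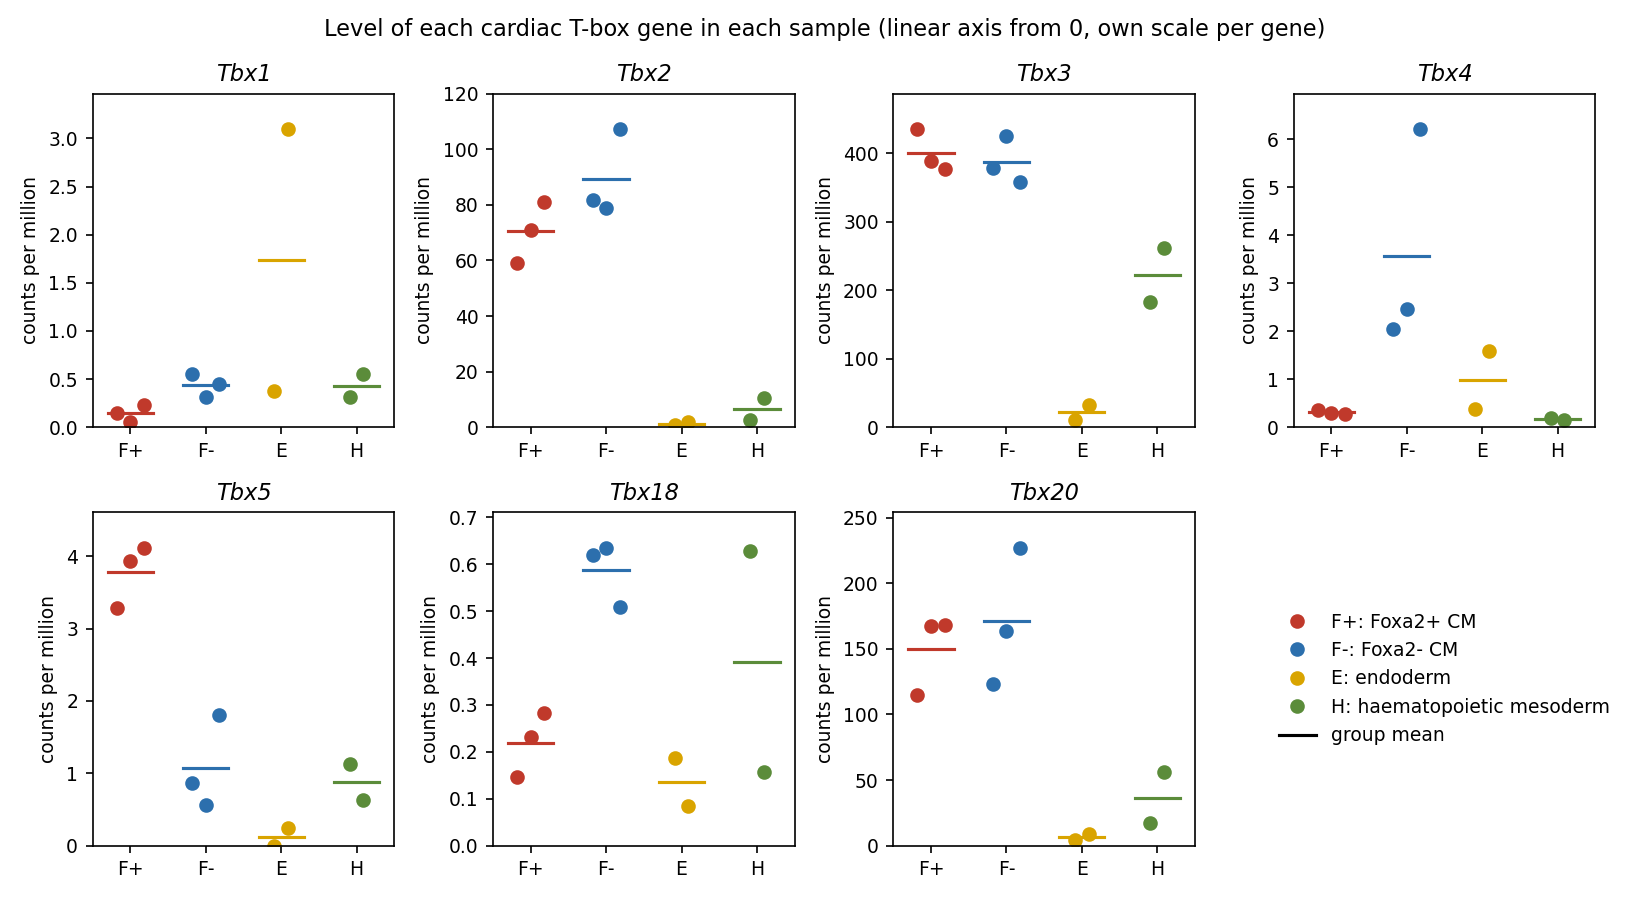
CPM of each of the 7 genes (y axis, linear from 0, own scale per gene) in each sample of the 4 groups (x axis), with group means as lines. Tbx2, Tbx3 and Tbx20 sit at 59.0 CPM or more in every CM sample, Tbx5 is highest in Foxa2+ CM (3.29 to 4.12 CPM) and Tbx4 in Foxa2- CM (2.04 to 6.21 CPM).

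The 7 genes summed to 92.4 to 94.5 RPKM in Foxa2+ CM and 91.0 to 105 in Foxa2- CM, against 2.41 and 7.63 in endoderm and 30.2 and 47.4 in haematopoietic mesoderm. Tbx3 supplied 60.3 to 71.1% of this sum in Foxa2+ CM, 51.5 to 63.7% in Foxa2- CM and 63.7 to 65.3% in endoderm, but 83.3 to 91.3% in haematopoietic mesoderm. Below Tbx3, Tbx2 was above Tbx20 in RPKM in 6 of 6 CM samples, and Tbx20 was above Tbx2 in 4 of 4 endoderm and haematopoietic samples. In endoderm replicate 2, Tbx1 (11.5% of the sum) was above both Tbx20 (9.78%) and Tbx2 (6.35%). The order of Tbx2 and Tbx20 was the same when the longest transcript tagged as principal in the annotation (9091 bases for Tbx20) replaced the full exonic length (11997 bases). The difference between groups in this order was not tested.

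**Figure D2:**
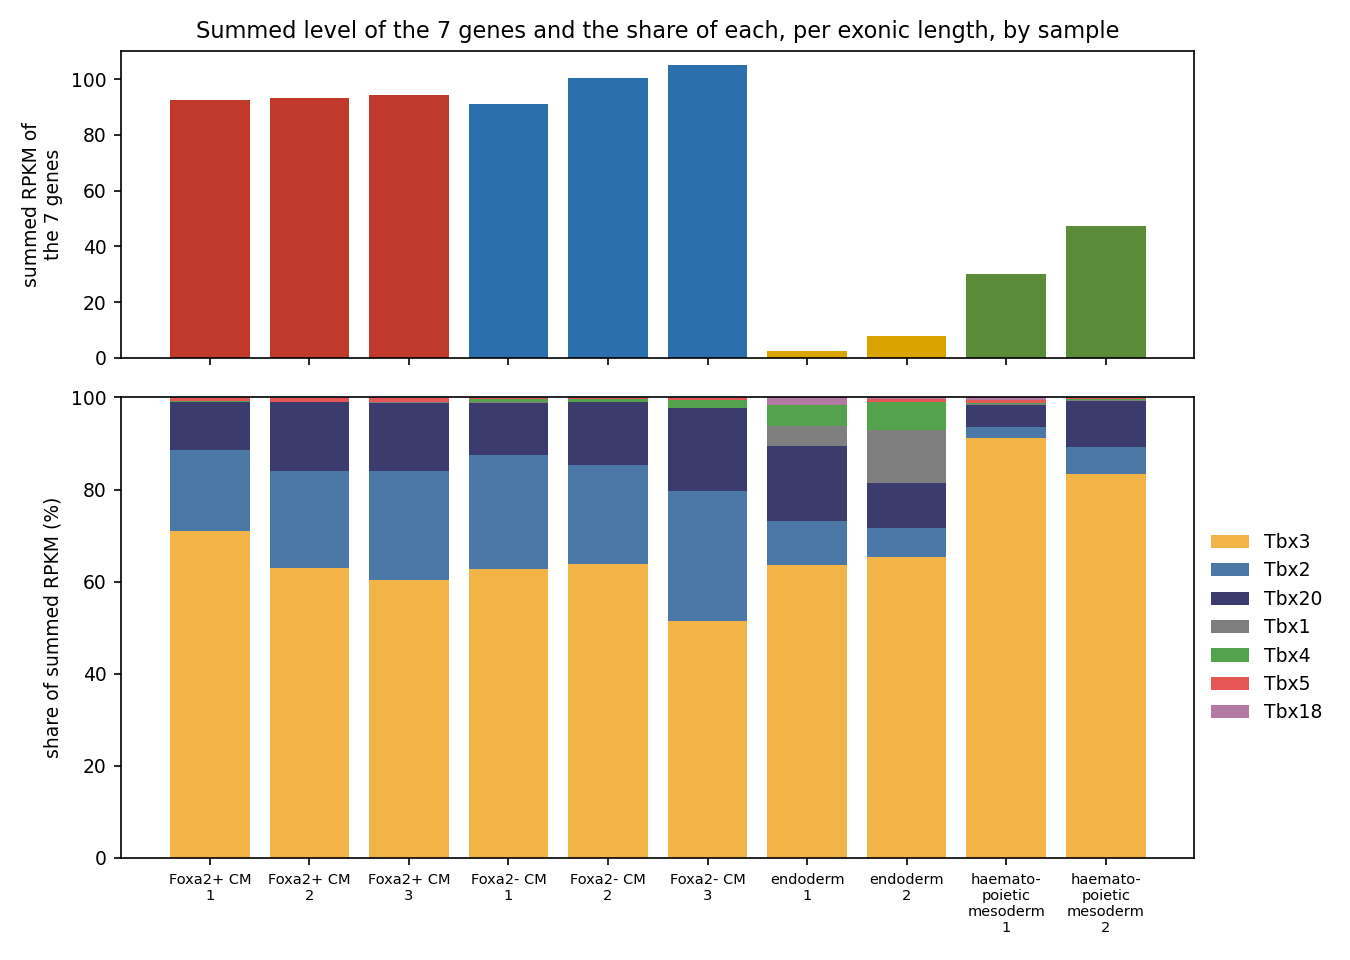
Summed RPKM of the 7 genes (upper panel) and the share of each gene in it in percent (lower panel) for each sample, sample numbers below. The sum is 91.0 to 105 RPKM in CM, and Tbx3 (yellow) takes 51.5 to 91.3% of it in every sample.

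Setting the hCD4+ cells beside the hCD4- cells of the same CM gate asks whether Foxa2-expressing cardiac mesoderm differs in gene expression from the rest. Of the 7 genes, 5 passed the filter on low counts and were tested in edgeR's quasi-likelihood test across 15284 genes with Benjamini-Hochberg adjustment, in which a gene was called at an adjusted p under 0.05. 1 of the 7, Tbx5, was called higher in Foxa2+ CM and 1, Tbx4, was called lower, against 3.81% of all tested genes called higher and 2.66% called lower. Both had few reads, and each passed the filter through the group in which it was high: Tbx4 exceeded the limit of 0.613 CPM in 0 of 3 Foxa2+ and 3 of 3 Foxa2- samples, and Tbx5 in 3 of 3 and 2 of 3. The counts of calls among the tested genes are therefore a description only. Without any filter both were called as well, with adjusted p = 0.000904 for Tbx4 and 0.00927 for Tbx5.

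Tbx5 is the factor whose loss in heterozygotes causes heart and forelimb defects, and it marks the first heart field early. Its counts were 45, 68 and 73 in the Foxa2+ CM samples and 14, 7 and 32 in the Foxa2- CM samples, or 3.78 ± 0.43 and 1.08 ± 0.65 CPM (SD, n = 3 each). The groups did not overlap, with the lowest Foxa2+ value (3.29 CPM) above the highest Foxa2- value (1.81 CPM, in replicate 3). The log2 fold change was 1.76 ± 0.37 (SE, adjusted p = 0.0331). The call was lost without any 1 of Foxa2+ CM replicates 1, 2 or 3 (1.85, 1.73 and 1.70, adjusted p = 0.0840, 0.132 and 0.0634) and without Foxa2- CM replicate 1 or 2 (1.59 and 1.48, adjusted p = 0.121 and 0.106). It was kept without Foxa2- CM replicate 3 (2.39, adjusted p = 0.00127) and without replicate 3 of both CM groups (2.32, adjusted p = 2.21e-08). In the model of all 10 samples it was 1.77 with adjusted p = 0.0952. The paper had also measured Tbx5 by quantitative PCR, among candidate genes chosen to check its own DESeq2 results.

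Tbx4, the neighbour of Tbx2 and closest relative of Tbx5, went the other way. Its counts were 5, 5 and 5 in Foxa2+ CM and 33, 31 and 110 in Foxa2- CM, or 0.312 ± 0.046 against 3.57 ± 2.29 CPM. All 3 Foxa2- samples (2.04, 2.46 and 6.21 CPM) were above all 3 Foxa2+ samples, and replicate 3 stood above the other two. The log2 fold change was -3.52 ± 0.55 (SE, adjusted p = 0.0114), which became -2.82 without Foxa2- CM replicate 3 (adjusted p = 0.000895) and lost its call without Foxa2+ CM replicate 2 (-3.48, adjusted p = 0.0702). Foxa2- CM replicate 3 was also the sample with the highest Tbx2, Tbx5 and Tbx20 levels in its group and with the highest summed level of haematopoietic markers in it (641 CPM against 385 and 390). Foxa2+ CM replicate 3, with 5 Tbx4 counts, had a sum of 660 CPM of these markers, and haematopoietic mesoderm itself had 3 and 2 Tbx4 counts. The part of haematopoietic cells in the Tbx4 value was not tested.

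Because Tbx4 and Tbx5 moved in opposite directions, their ratio within a sample, which needs no scaling between libraries, separated the 2 kinds of CM. Tbx5 made up 90.0, 93.2 and 93.6% of the summed Tbx4 and Tbx5 counts in Foxa2+ CM and 29.8, 18.4 and 22.5% in Foxa2- CM. The exact (Clopper-Pearson) 95% intervals, which cover counting error only, reached down to 78.2% in Foxa2+ CM and up to 44.9% in Foxa2- CM. On the log2 scale the ratio of Tbx5 to Tbx4 counts averaged 3.60 ± 0.38 in Foxa2+ CM (SD, n = 3) against -1.72 ± 0.46 in Foxa2- CM (SD, n = 3), which differ by 5.32. This restates the 2 single-gene differences and was given no test of its own. Haematopoietic mesoderm, which was sorted without reference to hCD4, had shares of 85.7 and 80.0%, on only 21 and 10 summed counts.

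**Figure D3:**
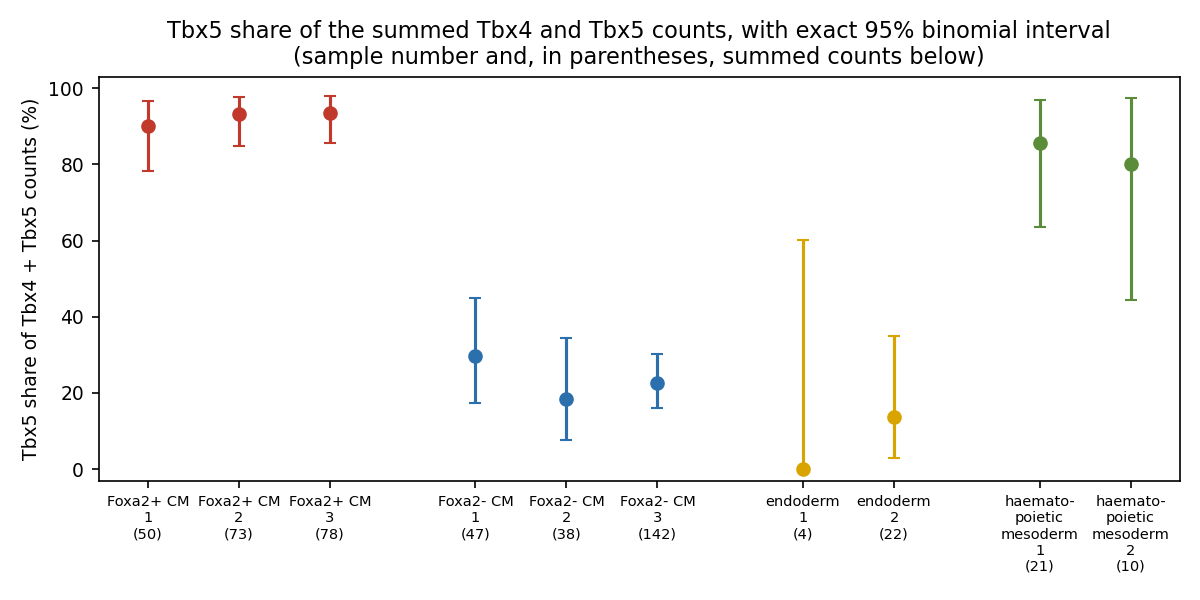
Share of Tbx5 in the summed Tbx4 and Tbx5 counts (y axis, percent) in each sample (x axis, summed counts in parentheses), with exact 95% binomial intervals as bars. Foxa2+ CM lies at 90.0 to 93.6% and Foxa2- CM at 18.4 to 29.8%, with no overlap of the intervals.

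Tbx2, Tbx3 and Tbx20, the members with the most reads, were not called between the 2 CM groups. Tbx3 had 377 to 435 CPM in Foxa2+ CM and 358 to 425 in Foxa2- CM, and its log2 fold change was 0.05 ± 0.09 (SE, adjusted p = 0.857). Duplicate reads were removed from these single-end libraries, which leaves at most 2 reads per start position. Tbx3 stood at 0.808 to 1.01 counts per exonic base in CM, and the effect of this ceiling on its level was not tested. Tbx2 had counts of 807, 1229 and 1439 in Foxa2+ CM and 1321, 993 and 1900 in Foxa2- CM, or 59.0 to 81.2 against 78.8 to 107 CPM. Its groups overlapped by 1 pair of neighbouring values, and the log2 fold change was -0.34 ± 0.15 (adjusted p = 0.271). Tbx2 passed the threshold when replicate 3 of both groups was left out, at -0.29 with adjusted p = 0.0189. Tbx20 counted 1573, 2888 and 2983 reads in Foxa2+ CM and 1995, 2064 and 4022 in Foxa2- CM. It varied as much within each group (115 to 168 CPM and 124 to 227 CPM) as between them, at -0.19 ± 0.23 on the log2 scale (adjusted p = 0.784).

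Tbx1 and Tbx18 stayed near the detection limit in CM and failed the filter. Tbx1 had 2, 1 and 4 counts in Foxa2+ CM and 9, 4 and 8 in Foxa2- CM, and Tbx18 had 2, 4 and 5 against 10, 8 and 9. In CPM both were lower in every Foxa2+ sample than in every Foxa2- sample. Tbx1 had 0.058 to 0.226 against 0.318 to 0.557 CPM, and Tbx18 had 0.146 to 0.282 against 0.508 to 0.635 CPM. The nearest Tbx1 samples, Foxa2+ CM replicate 3 and Foxa2- CM replicate 2, both had 4 counts, so only library size set them apart. The share of all genes without overlap between the CM groups was not counted. Non-overlap is therefore a description only, also for Tbx4 and Tbx5. In the fit without a filter the log2 fold changes were -1.60 ± 0.58 for Tbx1 (SE, adjusted p = 0.194) and -1.36 ± 0.46 for Tbx18 (adjusted p = 0.151), and neither was called. Summed levels of pluripotency markers (53.3 to 59.3 CPM in Foxa2+ CM, 83.5 to 120 in Foxa2- CM) also separated the groups, but their members did not move together. Pou5f1, Nanog and Sox2 averaged lower in Foxa2+ CM, while Esrrb (5.18 against 2.02 CPM), Dppa4 (2.54 against 1.28) and Zfp42 (5.77 against 5.47) averaged higher. Sums of paraxial mesoderm markers were 29.9 to 39.5 and 38.1 to 60.9 CPM, with Meox1 going the other way (20.5 against 9.38 CPM). The part of these markers in the differences of Tbx1, Tbx4 and Tbx18 was not tested.

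Comparisons with endoderm and haematopoietic mesoderm used 1 model of all 10 samples and 16180 genes, in which the same 5 of 7 genes passed the filter. These comparisons share samples with one another, so their results are not independent. Tbx5 exceeded the limit of 0.688 CPM in 3 Foxa2+ CM, 2 Foxa2- CM, 0 endoderm and 1 haematopoietic samples. Tbx4 exceeded it in 0 Foxa2+ CM, 3 Foxa2- CM, 1 endoderm and 0 haematopoietic samples. Both again passed the filter through groups in which they were high, so the counts of calls here are also a description only. In endoderm, 4 of the 7 (Tbx2, Tbx3, Tbx5 and Tbx20) were lower than in Foxa2+ CM, where 16.7% of all genes were called lower and 18.3% higher, and the same 4 were lower than in Foxa2- CM, where 14.0% were called lower and 16.1% higher. The summed level of 6 pluripotency markers also separated these groups, at 371 to 373 CPM in endoderm and 53.3 to 120 CPM in CM. Pou5f1, Nanog and Sox2 averaged higher in endoderm, while Zfp42 (2.15 CPM), Esrrb (1.71) and Dppa4 (0.298) averaged lower there than in either CM group. The part of these markers in the endoderm differences was not tested.

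Of the 3 abundant members, Tbx2 had the largest difference between CM and endoderm. It had 9 and 21 counts in endoderm, or 0.839 and 1.76 CPM, all far below the 59.0 CPM of the lowest CM sample. The log2 fold changes were -5.73 ± 0.59 against Foxa2+ CM (adjusted p = 0.000108) and -6.08 ± 0.59 against Foxa2- CM (adjusted p = 8.99e-05), or -6.40 and -6.73 without endoderm replicate 2. Tbx3 was at 10.2 and 33.0 CPM in endoderm, with log2 fold changes of -4.20 ± 0.39 (adjusted p = 6.02e-05) and -4.15 ± 0.39 (adjusted p = 7.28e-05), or -5.32 and -5.26 without endoderm replicate 2. Tbx20 was at 4.66 and 8.95 CPM, with log2 fold changes of -4.45 ± 0.57 (adjusted p = 0.000381) and -4.64 ± 0.57 (adjusted p = 0.000368). Endoderm replicate 2 had higher Tbx2, Tbx3 and Tbx20 than replicate 1 and also more of the summed CM markers (214 against 133 CPM). Gata4 (60.2 and 122 CPM in replicates 1 and 2), Pdgfra (49.9 and 71.6), Kdr (6.24 and 9.95), Isl1, Nkx2-5 and Wnt2 were higher in replicate 2. The other CM markers, Mesp1 (5.40 and 1.92 CPM in replicates 1 and 2), Mesp2 (3.07 and 0.837), Hand1 (2.98 and 2.84) and Smarcd3 (2.98 and 2.59), were lower there. Whether residual mesoderm carried the Tbx2, Tbx3 and Tbx20 reads was not tested.

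Tbx5 had 0 and 3 counts in endoderm, and the 0 allows up to 0.280 CPM. Over the summed counts of each group Tbx5 was 28.9-fold higher in Foxa2+ CM (95% counting interval 9.73 to 141) and 8.63-fold higher in Foxa2- CM (2.80 to 43.2) than in endoderm. Against Foxa2+ CM it was called (adjusted p = 0.00137). Against Foxa2- CM it was called with adjusted p = 0.0258, but not without endoderm replicate 1 (0.140) or Foxa2- CM replicate 3 (0.0580), without replicate 3 of both CM groups (0.0782), or when only the 2 groups were fitted (-2.99, 0.0518). The fitted value against Foxa2- CM, -2.99, became -2.13 without endoderm replicate 1, -2.38 without Foxa2- CM replicate 3 and -7.06 without endoderm replicate 2, and that against Foxa2+ CM, -4.76, became -3.91 and -8.84 without endoderm replicates 1 and 2. Tbx4 had 4 and 19 counts in endoderm, between its levels in the CM groups, and was called against neither (1.66 ± 0.75, adjusted p = 0.113, and -1.84 ± 0.62, adjusted p = 0.0502). Its difference from Foxa2+ CM was 0.24 without endoderm replicate 2 and was called without Foxa2- CM replicate 3 (adjusted p = 0.0488), and its difference from Foxa2- CM was called without Foxa2- CM replicate 1 (-2.16, 0.0380) or endoderm replicate 2 (-3.26, 0.0333). Tbx1, the pharyngeal factor, had its single highest value of the series in endoderm replicate 2, with 37 counts (3.10 CPM) against 4 counts in endoderm replicate 1. Without a filter it was higher in endoderm than in Foxa2+ CM by 3.49 ± 0.75 on the log2 scale (adjusted p = 0.00342), a value that rests on that 1 sample. Tbx18 had 2 and 1 counts in endoderm, and Foxa2- CM had 4.39-fold more over the summed counts (95% counting interval 1.35 to 22.6). This interval covers counting error only. In the fit without a filter Tbx18 in endoderm against Foxa2- CM was -2.09 ± 0.75 on the log2 scale and was not called (adjusted p = 0.0696).

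**Figure D4:**
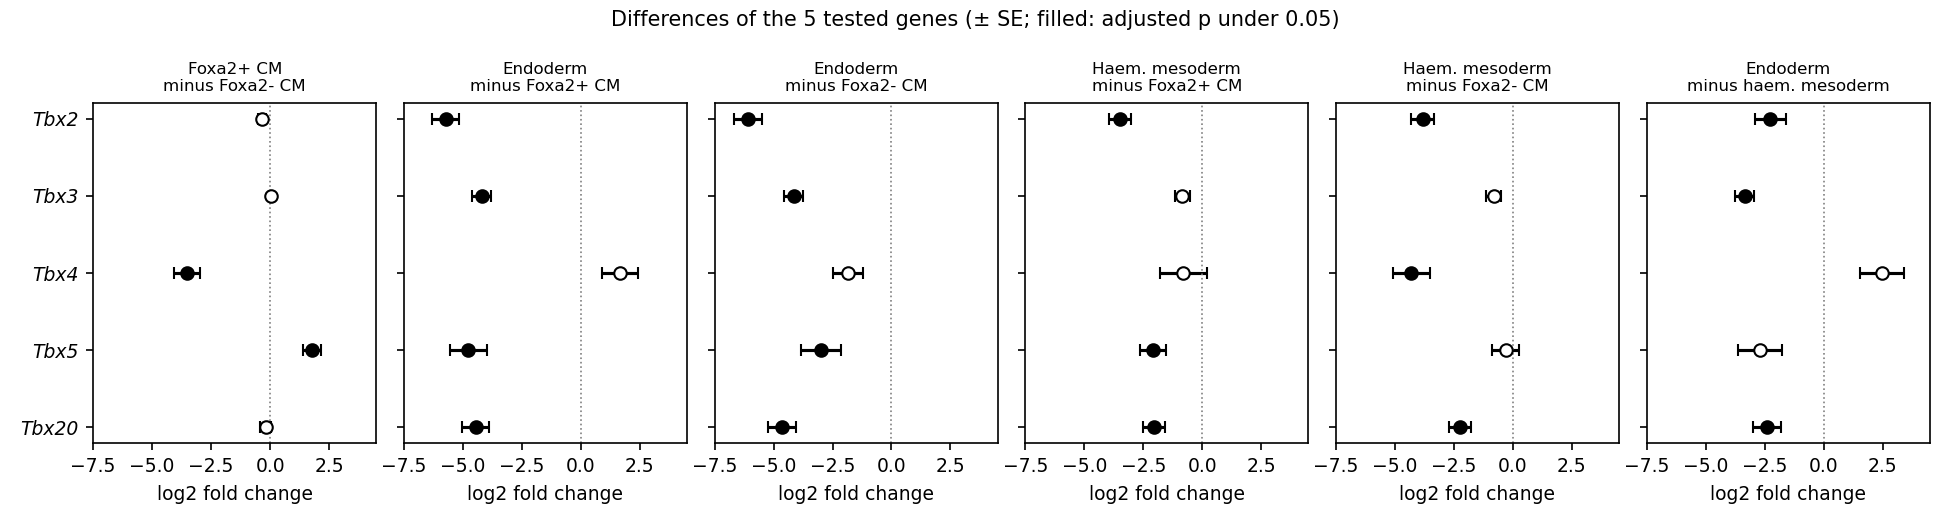
Log2 fold changes (x axis, ± SE) of the 5 tested genes in the 6 comparisons, with filled points for adjusted p under 0.05. Tbx2 and Tbx20 lie left of 0 in each comparison with endoderm or haematopoietic mesoderm, and Tbx4 (-3.52) and Tbx5 (1.76) lie on opposite sides of 0 between the CM groups.

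Haematopoietic mesoderm differed from CM in 3 of the 7 genes in each comparison. Tbx2, Tbx5 and Tbx20 were lower than in Foxa2+ CM, where 11.2% of all genes were called lower and 11.6% higher. Tbx2, Tbx4 and Tbx20 were lower than in Foxa2- CM, where 10.3% were called lower and 11.3% higher. Tbx2 had 40 and 132 counts (2.51 and 10.4 CPM) and log2 fold changes of -3.48 ± 0.47 and -3.83 ± 0.48 against Foxa2+ and Foxa2- CM (adjusted p = 0.00116 and 0.000846). Tbx20 had 270 and 714 counts (16.9 and 56.2 CPM) and log2 fold changes of -2.05 ± 0.47 and -2.24 ± 0.47 (adjusted p = 0.0129 and 0.00926). For both genes replicate 2 was the higher haematopoietic sample, and it also had more of the summed CM markers (914 against 745 CPM). These markers did not move together. Gata4 (85.4 and 192 CPM in replicates 1 and 2), Hand1 (33.0 and 69.9), Kdr, Nkx2-5 and Wnt2 were higher in replicate 2. Pdgfra (34.3 and 23.8 CPM in replicates 1 and 2), Mesp1 (11.4 and 1.10), Mesp2, Isl1 and Smarcd3 were lower there. The part of these markers was not tested. Without replicate 1 the differences shrank to -2.76 and -3.10 for Tbx2 and to -1.42 and -1.61 for Tbx20, and without replicate 2 they grew to -4.84 and -5.17 for Tbx2 and to -3.18 and -3.36 for Tbx20, all still called.

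Tbx3 had 182 and 261 CPM in haematopoietic mesoderm, below all 6 CM samples (358 CPM and above). Its log2 fold changes were -0.85 ± 0.32 against Foxa2+ CM (adjusted p = 0.0827) and -0.80 ± 0.32 against Foxa2- CM (adjusted p = 0.104). Both passed the threshold when only the 2 groups were fitted (adjusted p = 0.0182 and 0.0289) and when endoderm replicate 1 was left out (0.00500 and 0.00698) or endoderm replicate 2 (0.00495 and 0.00695), though their sizes stayed at -0.80 to -0.87. Tbx5 had 18 and 8 counts in haematopoietic mesoderm. It was lower than in Foxa2+ CM by 2.07 ± 0.55 on the log2 scale (log2 fold change -2.07, adjusted p = 0.0238), a call lost without Foxa2+ CM replicates 1, 2 or 3 (0.0517, 0.0656 and 0.0550) or haematopoietic replicate 2 (0.105). Against Foxa2- CM, with which its values overlapped, its log2 fold change was -0.30 ± 0.57 (adjusted p = 0.762). Tbx4, with 3 and 2 counts, was lower than in Foxa2- CM at -4.30 ± 0.79 (adjusted p = 0.00500), or -3.62 without Foxa2- CM replicate 3, and did not reach the threshold against Foxa2+ CM (-0.80 ± 0.99, adjusted p = 0.607). Tbx18 had 10 and 2 counts and Tbx1 5 and 7, both within the range of Foxa2- CM or below it.

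Between endoderm and haematopoietic mesoderm, 3 of the 7 genes were called lower in endoderm, where 16.2% of all genes were called lower and 16.4% higher. Tbx3 differed by -3.35 ± 0.39 on the log2 scale (adjusted p = 0.000254), or -4.45 without endoderm replicate 2, and stayed called without any 1 sample. Tbx20 (-2.40 ± 0.59, adjusted p = 0.0117) became -1.30 without haematopoietic replicate 2 (0.0839), -2.03 without endoderm replicate 1 (0.0917) and -3.03 without haematopoietic replicate 1 (0.000812). Tbx2 (-2.25 ± 0.66, adjusted p = 0.0268) lost its call without endoderm replicate 1 (-1.85, 0.157), endoderm replicate 2 (-2.89, 0.0752) or haematopoietic replicate 2 (-0.93, 0.211) and was -2.97 without haematopoietic replicate 1. Tbx5 (-2.69 ± 0.92, adjusted p = 0.0501) and Tbx4 (2.46 ± 0.94, adjusted p = 0.0727) missed the threshold. Both passed it without Foxa2- CM replicate 3 (0.0273 for Tbx5 and 0.0276 for Tbx4). Tbx5 also passed it without Foxa2- CM replicate 2 (0.0469) or endoderm replicate 2 (-6.74, 0.0392), and Tbx4 without endoderm replicate 1 (3.12, 0.0373).

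Among the 10 other T-box genes, 6 were tested in the CM comparison and 1 was called. Tbx6, a paraxial mesoderm factor, had 86, 125 and 112 counts in Foxa2+ CM and 314, 190 and 169 in the Foxa2- samples, and was lower at -1.14 ± 0.25 on the log2 scale (adjusted p = 0.0354), a call lost without any 1 of Foxa2+ CM replicates 1, 2 or 3 or Foxa2- CM replicates 1 or 2. Per length, the early mesendoderm factors Eomes (84.1 ± 11.2 and 82.8 ± 13.9 RPKM in Foxa2+ and Foxa2- CM) and T (47.3 ± 2.78 and 40.7 ± 5.03 RPKM) stood beside Tbx3 at the top of the family. Eomes held 1.22 to 1.39 counts per exonic base in CM and 0.998 to 1.04 in endoderm. The effect on Eomes and T of the ceiling left by duplicate removal, described above for Tbx3, was not tested. Eomes, T, Mga, Tbr1 and Tbx15 were tested and not called between the CM groups. Eomes was not called in endoderm (375 ± 40.1 CPM, against 350 ± 46.5 in Foxa2+ CM, or 0.10 on the log2 scale with adjusted p = 0.824) and was lower in haematopoietic mesoderm (143 ± 87.8 CPM), by a log2 fold change of -1.29 against Foxa2+ CM (adjusted p = 0.0194). Tbx15 was highest in haematopoietic mesoderm, at 2.24 ± 0.51 CPM against 0.936 ± 0.173 in Foxa2+ CM, a difference of 1.25 on the log2 scale (adjusted p = 0.0277). It was lower in endoderm than in Foxa2+ CM (-2.03, adjusted p = 0.0129), and Tbx6 was lower there than in Foxa2- CM (-1.72, adjusted p = 0.0265). Tbx10, Tbx19, Tbx21 and Tbx22 had 10 counts or fewer in every sample.

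Partners of the T-box factors were read from a list of 16 transcription factors and cofactors that act with them in the heart. The paper had already named Zfpm2 and Casz1 among genes upregulated in Foxa2+ CM, and had measured Zfpm2, Myocd and Isl1 by quantitative PCR. This list and the upstream and target lists below were chosen with earlier results of these data known. Their counts of calls are therefore a description only. In the CM comparison 15 were tested, 4 were called higher in Foxa2+ CM and 2 lower (3.81% and 2.66% of all genes), with a list median of 0.02 on the log2 scale beside -0.00 for all genes. Zfpm2, a Gata cofactor, rose by 2.57 ± 0.30 and Casz1, a zinc-finger partner of Tbx5 and Tbx20, by 2.03 ± 0.21 (adjusted p = 0.00439 and 0.00277). The other two, named after their values were seen, were Myocd, the Srf coactivator (1.49, adjusted p = 0.00573), and Nkx2-5, the homeodomain partner of Tbx5 and Tbx20 (1.11, adjusted p = 0.0152). Isl1, the second heart field factor, stood at -2.69 ± 0.32 and Hand1 at -1.04 ± 0.24 (adjusted p = 0.00446 and 0.0429), the same direction as Tbx4. Gata4 (0.16, adjusted p = 0.374) was not called. In endoderm 7 of 15 tested partners were lower and 2 higher than in Foxa2+ CM (16.7% and 18.3% of all genes), with the largest falls in Hand2 (log2 fold change -8.26) and Nkx2-5 (-7.46) and with small rises of Sall4 (0.69) and Chd4 (0.29). Against Foxa2- CM 8 were lower, led by Hand2 (-9.01) and Nkx2-5 (-6.35), and 3 higher, led by Tle1 (0.50) and Sall4 (0.46), where 14.0% and 16.1% of all genes were called. In haematopoietic mesoderm 6 were called against Foxa2+ CM, all lower, led by Nkx2-5 (-2.75) and Casz1 (-1.18), where 11.2% of all genes were called lower. Of the partners, 7 were lower in haematopoietic mesoderm, led by Isl1 (-2.43) and Hand2 (-2.30), with 1 higher, Zfpm2 (2.08), than in Foxa2- CM (10.3% and 11.3% of all genes).

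Of 19 genes known to act upstream of cardiac T-box genes (among them BMP, forkhead and retinoid genes), 18 were tested in the CM comparison, 2 were higher and 4 lower in Foxa2+ CM, with a list median of -0.01 (3.81% and 2.66% of all genes were called). The 6 calls fell to 3 in the model of all 10 samples, to 3 without Foxa2+ CM replicate 1 and to 1 without replicate 2 of either CM group. The higher genes were Foxa2 (3.18 ± 0.69 on the log2 scale, adjusted p = 0.0353), the gene on which the sort was made, and Eya1 (1.06 ± 0.09, adjusted p = 0.00174). The lowest were Aldh1a2, which makes retinoic acid (-2.02 ± 0.39, adjusted p = 0.0227), and Foxc1 (-1.86 ± 0.33, adjusted p = 0.0176). Bmp4, which induces Tbx2, Tbx3 and Tbx20, was lower in endoderm than in Foxa2+ CM (-4.93 ± 0.18, adjusted p = 5.63e-07), together with Bmp5 (-4.32), among 7 lower and 4 higher genes of the list (16.7% and 18.3% of all genes), the latter including Foxa2 (3.81). Bmp4 was also lower in endoderm than in haematopoietic mesoderm (-3.92, adjusted p = 2.19e-06). Its difference between haematopoietic mesoderm and Foxa2+ CM was -1.01 ± 0.13 (adjusted p = 0.00101), and here, where 11.2% of all genes were called lower and 11.6% higher, 6 genes of the list were lower, with Foxa2 (-4.14) and Msx2 (-1.63) the furthest, and 4 were higher, with Foxc2 (2.74) and Foxc1 (2.32) the furthest.

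Of 18 genes that cardiac T-box proteins are known to bind or regulate, 14 were tested between the CM groups, with a list median of 0.10, and 1, Cdkn2a, the cell-cycle inhibitor gene that Tbx2 and Tbx3 repress, was called, higher in Foxa2+ CM (0.58 ± 0.13, adjusted p = 0.0378). This call was lost in the model of all 10 samples and without Foxa2+ CM replicate 1 or 2 or Foxa2- CM replicate 1 or 2, and the difference is under 2-fold. Of the same number tested, 3 were lower and 3 higher in endoderm than in Foxa2+ CM (16.7% and 18.3% of all genes), and 2 were lower and 2 higher in haematopoietic mesoderm (11.2% and 11.6% of all genes). Against Foxa2+ CM, Smyd1, a myocyte methyltransferase gene, was lower in endoderm (-3.81, adjusted p = 0.00402), as was Fgf10 (-1.55), while Myh6 (2.87), a cardiac myosin gene, was higher there. In haematopoietic mesoderm Fgf8 (-3.18) and Gja1 (-0.44) were lower and Hcn4 (3.83) and Myh6 (3.26) higher than in Foxa2+ CM. The haematopoietic samples were far apart in Hcn4, with 31 and 351 counts (2.44 and 22.0 CPM). Foxa2+ CM had 0.579 to 1.24 CPM of Hcn4 and Foxa2- CM 1.92 to 4.40. Over the partner, upstream and target lists the medians were -0.85, -0.48 and -0.16 for endoderm against Foxa2+ CM (0.01 for all genes) and -0.61, -0.50 and 0.10 for haematopoietic mesoderm against Foxa2+ CM (0.03 for all genes).

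The genes whose pattern over the 10 samples was most like each tested member were ranked by Pearson's correlation of log2 CPM among 12205 genes, as a description in which 4 groups supply most of the spread. Tbx2 was closest to Runx3 (r = 0.995), Fam122b (0.992) and Tbx20 (0.987), and Tbx20 in turn to Tbx2, Msx2 (0.986) and Runx3 (0.985). Tbx3 was closest to Prdm6 (0.996), Mmp9 (0.992) and Vstm2b (0.991), which were all abundant in CM, lower in haematopoietic mesoderm and lowest in endoderm. Tbx5 was closest to Fhod3 (0.991), a sarcomeric formin gene with 117 CPM in Foxa2+ CM and 55.5 in Foxa2- CM, and then to Kremen1 (0.981) and 2200002D01Rik (0.980). With a prior count of 5 in place of 1, 1 of these 3 genes stayed among the 3 closest to Tbx5. Tbx4 had the least close neighbours, Tmem185a (0.937), Efna1 (0.933) and Pdlim4 (0.903), and Pdlim4 averaged 6.21 CPM in Foxa2+ CM and 32.0 in Foxa2- CM.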

How the data were processed

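RNAseq libraries (TruSeq v2, which does not mark strand) were sequenced by the authors as 50 nt single-end reads, aligned to mm10 with STAR 2.5.0a, cleared of duplicates with Picard and counted with HTSeq 0.6.0. The strand setting and annotation release were not given in the sources used here. The deposited values are raw counts per gene, not normalized. The 38924 identifiers were matched without version to GENCODE M21 (37607 matched), a later annotation of the same build. The members and gene lists were chosen with earlier results of these data known. CPM and RPKM used TMM library sizes. Genes were filtered with filterByExpr and tested with edgeR 4.0.16 (quasi-likelihood, R 4.3.3) and Benjamini-Hochberg adjustment over all tested genes, on 6 CM samples for the CM comparison and otherwise on all 10. SEs were derived from each fold change and its F statistic. The test was checked on simulated counts with a fixed spread and with changes only in genes averaging at least 50 counts. This check does not cover genes with as few reads as Tbx4 and Tbx5. Alternatives were DESeq2 1.42.0, RLE size factors, total counts alone, no filter, a mean of at least 50 counts, an added 2-fold limit, a prior count of 5, other sample sets, a replicate block and leaving out samples. Named genes were all members, all other T-box genes that were called, the 2 called genes with the largest rise and fall of each list and the 3 genes closest to each member, except that some items are not reported here. Counts set the precision, with 10926284 to 17470126 per sample. Figures used pandas 2.3.3 and matplotlib 3.10.9.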

Additional observations from a re-analysis of the deposited data

How the results depend on the processing

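The number of cardiac T-box genes called between Foxa2+ CM and Foxa2- CM, 2 as reported, was 0 when genes had to average 50 counts or more, and 1 in the model of all 10 samples. It ranged from 0 to 3 when samples were left out. In endoderm against haematopoietic mesoderm the number, 3 as reported, was 1 when only these 2 groups were fitted, and ranged from 2 to 5 when samples were left out. In the other 4 comparisons it stayed within 1.5 times the reported number under every alternative run. Directions that reversed belonged to values near 0 that were not called. Between the CM groups Tbx3 became -0.014 on the log2 scale without Foxa2+ CM replicate 1 and Tbx20 became 0.079 without Foxa2- CM replicate 3 (ranges over left-out samples -0.014 to 0.12 and -0.40 to 0.079). Tbx5 in haematopoietic mesoderm against Foxa2- CM became 0.30 without Foxa2- CM replicate 3, 0.0024 without haematopoietic replicate 2 and 0.31 without replicate 3 of both CM groups (range -0.80 to 0.31). The causes were not tested. Among the lists in the CM comparison, the model of all 10 samples called 0 other T-box genes (1 as reported), 3 upstream genes (6 as reported) and 0 targets (1 as reported), and the number of targets was 3 with DESeq2, 2 without a filter, 2 with total counts alone and 0 with an added 2-fold limit. Leaving out samples gave 0 to 1 other T-box genes, 1 to 9 upstream genes and 0 to 3 targets. Over left-out samples 272 results kept their direction and side of the threshold, 18 lost a call, 15 gained 1 and 5 reversed, and over the other alternatives 180 kept both, 5 lost a call and 9 gained 1.

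Same-numbered CM samples deviated together for replicates 1 (r = 0.42) and 3 (0.51) but barely for replicate 2 (0.064), so the numbers were not taken to pair the samples, although each Foxa2+ CM sample correlated best with the Foxa2- CM sample of its own number, a hint from the data and not the design. With a replicate block 3 genes were called between the CM groups, with Tbx2 added (-0.34, adjusted p = 0.00495), beside 2 other T-box genes and 4 targets. The replicate block left 5 calls for endoderm against Foxa2+ CM, 3 against Foxa2- CM, and 3 in each remaining comparison, with Tbx4 gained in the first (2.05, adjusted p = 0.0451) and Tbx5 lost in the second (0.0540). Depth limits Tbx1, Tbx4, Tbx5 and Tbx18, whose values rest on 0 to 110 reads per sample.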
